A study of Mus musculus with 33 samples.

Results

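Trimethylation of histone H3 at lysine 4 (H3K4me3) was followed in wild type (WT) mouse cells from E14 embryonic stem cells (mESC) through embryoid bodies (EBs), the aggregates in which stem cells differentiate, at weeks 1, 2 and 3. These were 4 of the 33 samples of a ChIP-seq series on Uhrf1, a protein that maintains DNA methylation, and they were chosen by their titles as the WT samples precipitated with an anti-H3K4me3 antibody. All 4 carried the WT genotype of the E14 line and no agent other than the culture media. The mESC were kept undifferentiated in serum medium with leukemia inhibitory factor, on gelatin or on plates coated with mouse embryonic fibroblasts, and the EBs were grown from those cells. Each stage was 1 library of a whole culture, so differences between stages have no replicate spread behind them, no test was run and no p-value is given. In such mixed cultures, fewer cells carrying a mark and less of the mark per cell cannot be told apart. The deposited lists held 15272 H3K4me3 domains in mESC and 18672, 39898 and 27350 at weeks 1, 2 and 3. A promoter was called marked when a domain overlapped the 2 kb either side of the gene start by at least 1 bp, and 22367 protein-coding genes of the mm9 build were scored.

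H3K4me3 is laid down at gene starts by SET-domain methyltransferases, among them the Setd1a and Setd1b complexes, whose Cxxc1 subunit binds unmethylated CpG. It marks most CpG island promoters in every cell type, while CpG-poor promoters of tissue genes usually carry it only where the gene is active. In stem cells many developmental regulators carry it together with H3K27me3, the mark of Polycomb complexes, and such promoters are called bivalent.

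The lists differed in resolution and in depth. The mESC domains were built from 1300 bp bins and the EB domains from 400 bp bins, and the median domain was 9100 bp long in mESC and 4800, 2800 and 3800 bp at weeks 1, 2 and 3. According to the sequencing summary of the study, mESC had the fewest mapped reads of the 4 libraries, followed by week 1, week 3 and week 2. The share of domains that lay within 2 kb of a gene start was 62.5% in mESC and 60.6%, 30.7% and 43.8% at weeks 1, 2 and 3. At week 2, 15472 domains (38.8%) overlapped no domain of any other stage, and 325 of these lay near a gene start. Changes in length were therefore taken only between EB weeks. The mESC lengths given beside EB lengths below are descriptions, and a shorter EB domain is not read as a change from mESC. The long mESC domains bear on the lost promoters, as described with them.

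The 200 bases before the gene start are shown for 6 promoters that were not marked at every stage, so that their CpG content can be read from the sequences. Capitals mark CpG dinucleotides, positions are those of mm9, each sequence reads 5′ to 3′ on the strand of its gene, and none overlapped an annotated exon. Sult6b1, a sulfotransferase gene, and Izumo2, a paralog of a sperm fusion protein, were marked in mESC only and had the highest ranks there. Cebpe, a factor of granulocyte maturation, and Etohi1, a zinc finger gene, were the first by rank among promoters marked at all 3 EB weeks and not in mESC. Ddx4, a germ cell helicase marked in mESC only, and Actc1, the cardiac actin marked at weeks 1 and 2 only, were added after their values were seen.
Sult6b1 (chr17:79306333-79306532, minus strand): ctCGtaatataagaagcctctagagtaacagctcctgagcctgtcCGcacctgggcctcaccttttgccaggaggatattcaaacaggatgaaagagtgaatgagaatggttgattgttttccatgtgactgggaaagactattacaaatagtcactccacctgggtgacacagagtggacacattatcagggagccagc
Izumo2 (chr7:51963913-51964112, plus strand): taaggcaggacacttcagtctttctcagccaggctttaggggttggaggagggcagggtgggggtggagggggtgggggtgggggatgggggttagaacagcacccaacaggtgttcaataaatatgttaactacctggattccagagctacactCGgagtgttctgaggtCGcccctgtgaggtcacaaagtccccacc
Ddx4 (chr13:113442519-113442718, minus strand): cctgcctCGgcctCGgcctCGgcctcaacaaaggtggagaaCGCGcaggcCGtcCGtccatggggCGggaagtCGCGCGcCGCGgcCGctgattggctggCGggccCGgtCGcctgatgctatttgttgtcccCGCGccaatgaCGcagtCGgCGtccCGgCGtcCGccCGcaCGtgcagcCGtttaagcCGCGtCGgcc
Cebpe (chr14:55331012-55331211, minus strand): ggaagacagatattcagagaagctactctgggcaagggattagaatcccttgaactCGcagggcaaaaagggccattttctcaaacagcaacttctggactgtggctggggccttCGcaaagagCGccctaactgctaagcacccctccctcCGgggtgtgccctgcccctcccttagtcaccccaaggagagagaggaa
Etohi1 (chr2:177757789-177757988, plus strand): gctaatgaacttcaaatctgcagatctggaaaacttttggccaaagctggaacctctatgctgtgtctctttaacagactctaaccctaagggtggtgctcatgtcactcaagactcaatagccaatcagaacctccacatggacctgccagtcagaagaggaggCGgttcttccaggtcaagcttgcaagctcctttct
Actc1 (chr2:113879285-113879484, minus strand): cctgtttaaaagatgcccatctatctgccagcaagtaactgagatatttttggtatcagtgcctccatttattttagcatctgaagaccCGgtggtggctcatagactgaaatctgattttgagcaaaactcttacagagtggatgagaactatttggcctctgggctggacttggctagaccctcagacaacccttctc
The 200 bases held 2 CpGs each in Sult6b1 and Izumo2, 4 in Cebpe, and 1 each in Etohi1 and Actc1, against a median of 13 in always marked promoters. With 31 CpGs, Ddx4 stood apart from the other promoters shown. In Sult6b1, Izumo2, Cebpe and Actc1 the bases shown lay outside the longest domain by which the promoter was called marked. The domain covered them in Ddx4, and in Etohi1 at weeks 1 and 3 but not at week 2.

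Most promoters did not move between lists. H3K4me3 was found at 14130 promoters in mESC (63.2%), and in the EBs at 13885 (62.1%), 14699 (65.7%) and 14816 (66.2%) at weeks 1, 2 and 3. Of the promoters marked in mESC, 95.7% were also marked at week 3 (95% Wilson interval 95.3 to 96.0), and of those marked at week 3, 91.2% were also marked in mESC (90.8 to 91.7). All intervals given here cover counting error over promoters only. Between the EB lists, 98.1% of promoters marked at week 1 were also marked at week 3. From mESC to week 1 the share was 92.4% (92.0 to 92.8), and from week 2 back to mESC it was 90.1% (89.6 to 90.6).

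By their order of marking the promoters fell into 6 classes. Always marked promoters numbered 12793 (57.2%) and never marked promoters 6417 (28.7%). Gained promoters, absent from mESC and present from some EB week through week 3, numbered 1253 (5.60%), and lost promoters, present in mESC and absent from some week onward, numbered 548 (2.45%). A further 523 (2.34%) were marked only in passing, at week 1, week 2 or both, and 833 (3.72%) were interrupted, for example marked in mESC and week 3 but not between. Among gained promoters 623 were marked from week 1 (2.79%), 398 from week 2 (1.78%) and 232 at week 3 only (1.04%), and among lost promoters 440 were marked in mESC only (1.97%). Among passing promoters 361 were marked at week 2 only (1.61%) and 86 at week 1 only (0.384%). The interrupted class held 339 promoters absent at week 1 only (1.52%) and 232 absent at weeks 1 and 2 (1.04%). Which of the 2 classes was larger depended on the length of the lists: when each list was cut to its 15272 highest scoring domains, 550 promoters were gained and 1244 lost.

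**Figure D1:**
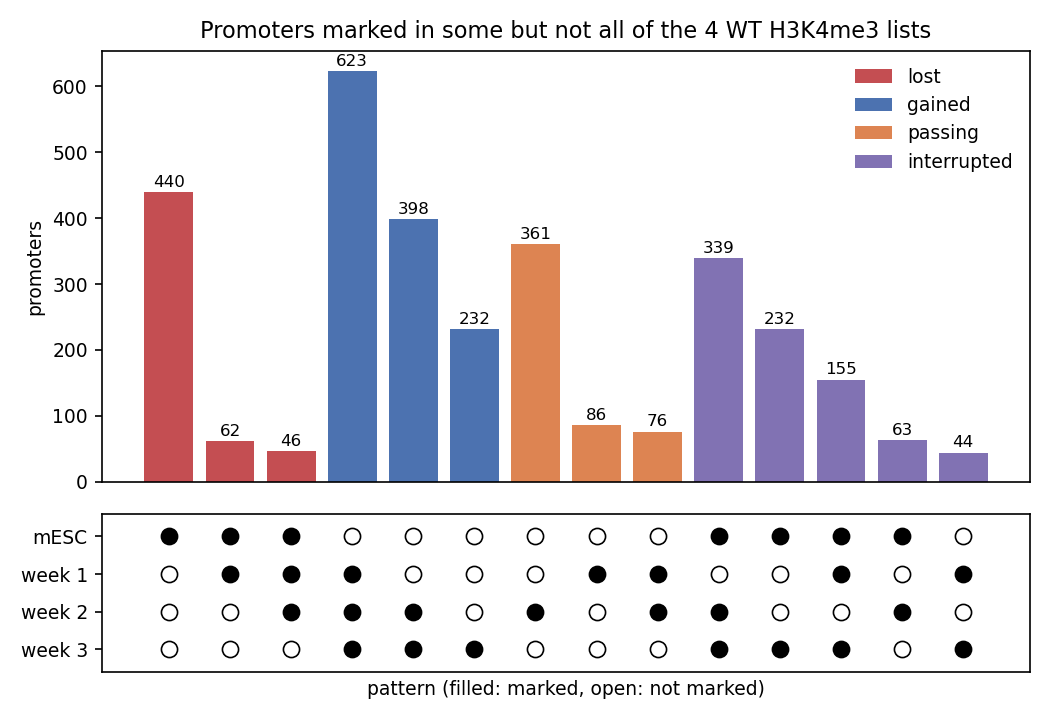
Number of promoters (y axis) with each pattern of H3K4me3 over mESC and EB weeks 1, 2 and 3. Filled circles under a bar mark the stages with a domain, colors give the class, and the always and never marked promoters are left out. The tallest bars are promoters gained from week 1 (623), marked in mESC only (440) and gained from week 2 (398).

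Loss of a promoter call was often not the loss of a domain. Of the 548 lost promoters, 359 (65.5%, interval 61.4 to 69.4) lay at a mESC domain that overlapped a week 3 domain elsewhere along its length, and 261 (47.6%) at a mESC domain that also covered the start of an always marked gene. The remaining 189 lost promoters had no week 3 domain anywhere under their mESC domain. Of the 1253 gained promoters, 1145 (91.4%) lay at a week 3 domain that overlapped no mESC domain. The median mESC domain at a lost promoter was 28600 bp long where a week 3 domain remained beneath it and 6500 bp where none did. At gained promoters the median week 3 domain was 2800 bp long where it overlapped no mESC domain and 13000 bp where it overlapped one. A longer domain has more room to meet another, so the shares for lost and gained promoters cannot be set against each other.

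The highest ranked promoters marked in mESC only showed the same split. At Sult6b1 the mESC domain was 11700 bp long, it lay 1469 bp from the gene start, and the nearest domain was 5669, 5269 and 6069 bp away at weeks 1, 2 and 3. At Tpm3, a tropomyosin gene, the domain of 37700 bp covered the gene start, and the EB domains lay 4230, 3830 and 3030 bp away. Another transcript start of Tpm3 was marked at each EB week. At Sult6b1, too, another transcript start was marked, at weeks 2 and 3. Foxr2, a forkhead factor gene on the X chromosome, had a mESC domain of 2600 bp over its start and none closer than 19872, 20272 and 20272 bp at the EB weeks. Tgtp2, an interferon-inducible GTPase gene, had a mESC domain of 1300 bp, and its nearest EB domains were 37493, 16293 and 19493 bp away. Of the 10 highest ranked genes, Foxr2 and Tgtp2 were those without a week 3 domain under the mESC domain, whereas Sult6b1, Izumo2, Alox12b, Zfp930, Slc25a41, Olfr1371, Itga10 and Tpm3 kept one.

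Promoters that were lost in a later step were fewer. Marked in mESC and week 1 only were 62 promoters (0.277%), led by Zar1l, a relative of an oocyte factor, with domains of 10400 bp in mESC and 6800 bp at week 1. Marked up to week 2 were 46 (0.206%), led by Strada, which encodes an adaptor of the kinase Stk11 and had domains of 84500, 15200 and 18000 bp. At Strada another transcript start was marked at week 3, as it was at Uckl1 and Gnb3. At Zfp708 and Aipl1, the others of the 5 highest ranked, no transcript start was marked at week 3, and the nearest domain lay 4117 and 2190 bp from the gene start.

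Among the 10 highest ranked promoters gained from week 1, 8 lay at a week 3 domain that overlapped no mESC domain, and Cebpe and Ccnk were the exceptions. Etohi1 had domains of 8000, 7600 and 19600 bp at weeks 1, 2 and 3, each above the 97th percentile of mean read count in its list, and the nearest mESC domain was 161089 bp away. Tspan6, a tetraspanin gene on the X chromosome, had domains of 2400, 3600 and 2400 bp, and Slc9a9, an endosomal sodium/proton exchanger gene, of 1200, 4400 and 6000 bp. Dynlt1b, a dynein light chain gene, lay in a domain of 64000 bp at each week, and it belongs to a locus of near-identical copies, where reads can be placed on any copy. Cebpe shows how close to the threshold a call can be: its EB domains lay 1790 bp from the gene start at all 3 weeks and its mESC domain 2190 bp, just outside the window.

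Promoters gained from week 2 were led by Lrrn3, Gbp6, Slitrk6, Art3 and Anxa1. Lrrn3, a leucine-rich repeat membrane protein gene, had domains of 6400 bp at week 2 and 4400 bp at week 3. Gbp6, an interferon-induced GTPase gene, had 4400 and 3200 bp, and Anxa1, which encodes the anti-inflammatory protein annexin A1, 9600 and 4800 bp. The nearest domain in mESC was 79263 bp from Lrrn3, 120683 bp from Gbp6 and 879267 bp from Anxa1. Of promoters gained at week 3 only, some of the highest ranked lay close to earlier domains: at Zfp78, a zinc finger gene, the mESC domain lay 2168 bp from the start and the week 3 domain 468 bp, and at Tbxa2r, the thromboxane receptor gene, 4824 and 677 bp.

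Median CpG content differed between the classes, although the class rule did not use sequence. The quartile ranges of the ratio below overlapped between lost (0.192 to 0.419), gained (0.211 to 0.482) and passing promoters (0.167 to 0.314). The ratio of observed to expected CpG in the 2 kb around the start had a median of 0.624 in always marked promoters, 0.309 in gained, 0.274 in lost, 0.231 in passing and 0.168 in never marked promoters, against 0.468 over all 22367. The median was 0.340 for the 189 lost promoters without a week 3 domain under their mESC domain, and 0.249 for the other 359. For the 1145 gained promoters at a week 3 domain that overlapped no mESC domain it was 0.320, and 0.228 for the other 108. The order of gained and lost promoters thus depended on this split. Within the gained class the median was 0.417 for promoters marked from week 1, 0.260 from week 2 and 0.226 at week 3 only. Promoters absent only at week 2 had a median of 0.482, above that of all promoters. Read over the 200 bases before the start, the median number of CpGs was 13 in always marked, 4 in gained, 3 in lost, 2 in passing and 1 in never marked promoters.

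**Figure D2:**
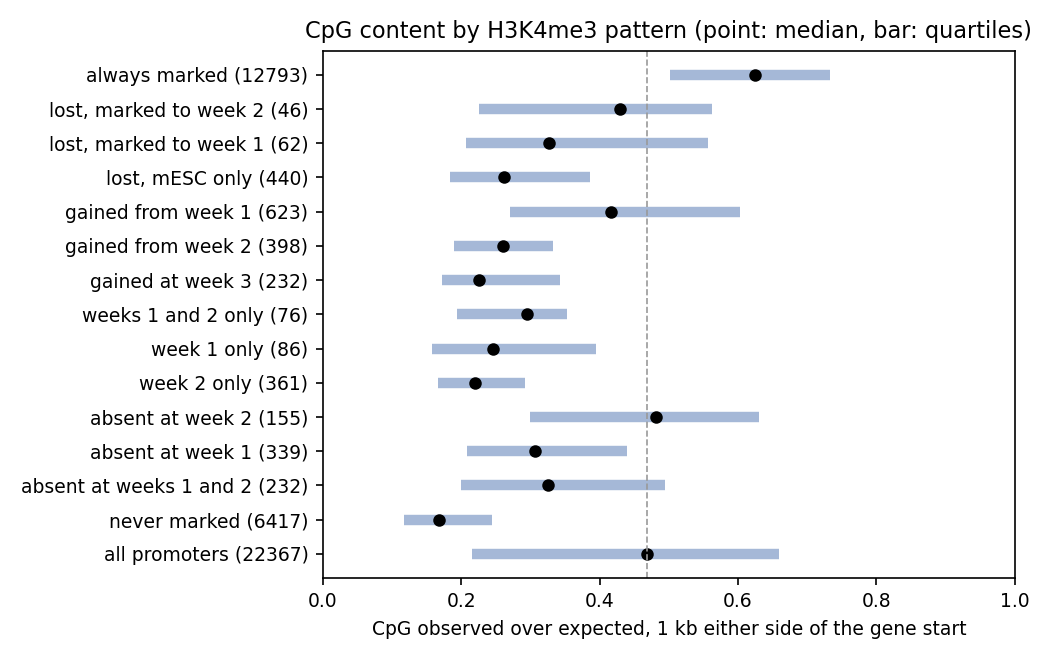
Observed over expected CpG within 1 kb either side of the gene start (x axis) for each H3K4me3 pattern, with the number of promoters in parentheses. Points are medians, bars span the quartiles, and the dashed line is the median of all promoters, 0.468. The median of always marked promoters lies to the right, and that of never marked ones to the left, of the medians of all other patterns.

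A TATA sequence showed the opposite order. The letters TATAAA, on either strand of the same 200 bases, were found in 4.60% of always marked promoters, 8.54% of gained, 10.6% of lost, 15.3% of passing and 20.9% of never marked promoters, against 10.1% of all. CCAAT, searched in the same way, was found in 32.0% of always marked, 25.6% of gained, 25.9% of lost, 25.6% of passing, 29.9% of never marked and 30.6% of all promoters. A match of these letters is a description and not a binding site.

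The X chromosome held 4.17% of all promoters and 8.99% of those gained from week 1 (56 of 623, interval 6.99 to 11.5). Of the promoters marked at weeks 1 and 2 only it held 13.2% (10 of 76, 7.31 to 22.6), and of the lost promoters 1.82% (10 of 548, 0.994 to 3.33). The X chromosome also held 6.72% of never marked promoters.

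To ask which of these promoters carried a repressive mark beforehand, the WT mESC list of H3K27me3 was set beside the classes, with a promoter counted when a domain lay within 5 kb of the start. These domains were wide, with a median of 61200 bp, and covered 959.7 Mb. H3K27me3 was found at 27.4% of always marked promoters (26.6 to 28.1), 46.0% of lost (41.9 to 50.2), 51.1% of gained (48.3 to 53.8) and 43.9% of never marked promoters (42.7 to 45.1). The share was 41.7% in passing and 44.7% in interrupted promoters, and 34.9% over all. Lost promoters exceeded always marked ones by 18.6 percentage points (Newcombe interval 14.4 to 22.9), and the 189 without a week 3 domain under their mESC domain exceeded them by 36.1 points (29.0 to 42.7). Promoters gained from week 1 exceeded those gained from week 2 by 14.2 points (7.91 to 20.3), at 58.9% against 44.7%.

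The excess of gained over never marked promoters, 7.16 points (4.14 to 10.2), turned to -4.21 points (-6.17 to -2.22) when only domains at or above the median score of their list were used for both marks. At promoters absent only at week 2, 59.4% had H3K27me3 in mESC, 32.0 points more than always marked ones (24.1 to 39.5). The share at these promoters was 71.0% at week 1, 50.3% at week 2 and 65.2% at week 3, against 20.5%, 29.8% and 33.2% of all promoters. Shares of H3K27me3 were not compared between stages, since that list covered 101.3 Mb at week 1 against 959.7 Mb in mESC, 1165 Mb at week 2 and 791.4 Mb at week 3.

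**Figure D3:**
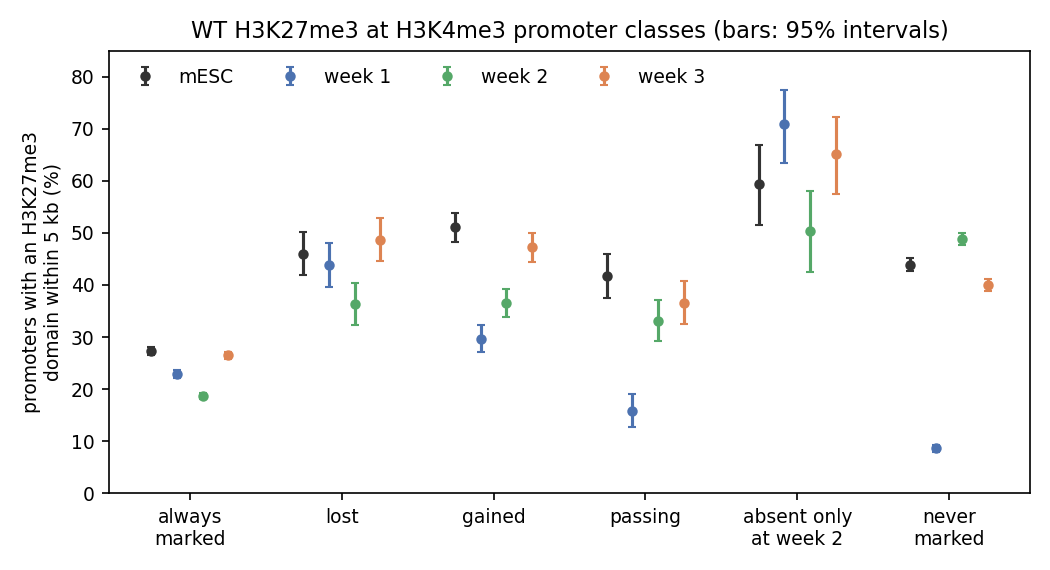
Share of promoters with a WT H3K27me3 domain within 5 kb of the start (y axis, percent) in each H3K4me3 class, by the stage of the H3K27me3 list (colors). Bars are 95% Wilson intervals over promoters. Among the groups drawn, always marked promoters lie lowest in mESC, at 27.4%, and promoters absent only at week 2 highest, at 59.4%.

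H3K9me3, a mark of heterochromatin, covered the start of 43.9% of never marked promoters in WT mESC, 29.9% of lost, 21.6% of gained and 14.5% of always marked ones. Over all promoters the share was 24.3%. The gained class lay 22.3 points below the never marked class, a difference of -22.3 (-24.8 to -19.7). Windows enriched for Uhrf1 in mESC covered the start of 11.3% of never marked, 2.47% of gained, 2.92% of lost and 0.320% of always marked promoters, against 3.75% of all. Summits of Oct4, the pluripotency factor, lay within 2 kb of 7.13% of always marked, 4.74% of lost and 3.03% of gained promoters, against 5.15% of all. The Oct4 share was 11.2% at promoters absent only at week 1, higher than in always marked ones by 4.08 points (1.11 to 7.91). It was 12.1% (8.48 to 16.9) at promoters absent at weeks 1 and 2 but present at week 3. Sox2 summits showed no such excess at promoters absent only at week 1. Their share was 6.19% against 7.33% in always marked ones, a difference of -1.14 points (-3.30 to 1.98).

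In the pluripotency network, some genes were without H3K4me3 at week 1 and carried it again at week 3. Of 24 core and naive pluripotency genes, 23 were marked in mESC and 14, 18 and 22 at weeks 1, 2 and 3. For this and the lists below, the share of all promoters marked at these stages was 63.2%, 62.1%, 65.7% and 66.2%. Marked in mESC and week 3 but not at week 1 were 9 of the 24, while this held for 2.55% of all promoters. With the start of any transcript in place of the gene start, the counts were 24, 15, 19 and 23, and the same comparison again gave 9. The week 3 culture is labelled as EB, and its list held all 10 core pluripotency promoters. Week 1 was the shallowest of the EB libraries, and the part of depth in these counts was not tested.

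Nanog, a homeobox factor of the naive state, had a domain of 22100 bp in mESC, none within 2 kb at week 1, 10800 bp at week 2 and 22400 bp at week 3. The nearest week 1 domain was 3907 bp from its start. Utf1, a chromatin factor of stem cells, had 16900 bp in mESC, 7200 bp at week 2 and 18800 bp at week 3, and Gdf3, a TGF-beta family ligand, 16900, 14400 and 15200 bp, both with none at week 1. All 3 genes thus lacked a domain at 1 stage, and the nearest week 1 domain lay 5113 bp from Utf1 and 6105 bp from Gdf3.

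Dppa2 and Dppa4, neighboring genes for chromatin factors of stem cells, carried domains of 10400 and 6500 bp in mESC, none at weeks 1 and 2, and 3600 and 3200 bp at week 3. The domain nearest to Dppa2 was 679811 bp away at week 1 and 167411 bp away at week 2. Nr0b1, an orphan nuclear receptor gene on the X chromosome, and Tcl1, an Akt co-activator gene, followed the same course with week 3 domains of 2400 and 4400 bp. Dppa5a, an RNA-binding protein gene, had 50700 bp in mESC, 3200 bp at week 2 and 21200 bp at week 3, and the signal gene Fgf4 had 16900, 2400 and 9200 bp. In both, no domain was near the start at week 1. Dppa3, a maternal factor also called Stella, was the exception in the lost class, with domains of 10400 bp in mESC and 6400 bp at week 1 and none within the window later. Its week 1 domain lay 1173 bp from the start and at the 2.60th percentile of mean read count. A week 3 domain still lay under its mESC domain, and the nearest at that week was 6373 bp from the start. Esrrb was not marked at its gene start at any stage, but at each of the 4 some other transcript start was marked.

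**Figure D4:**
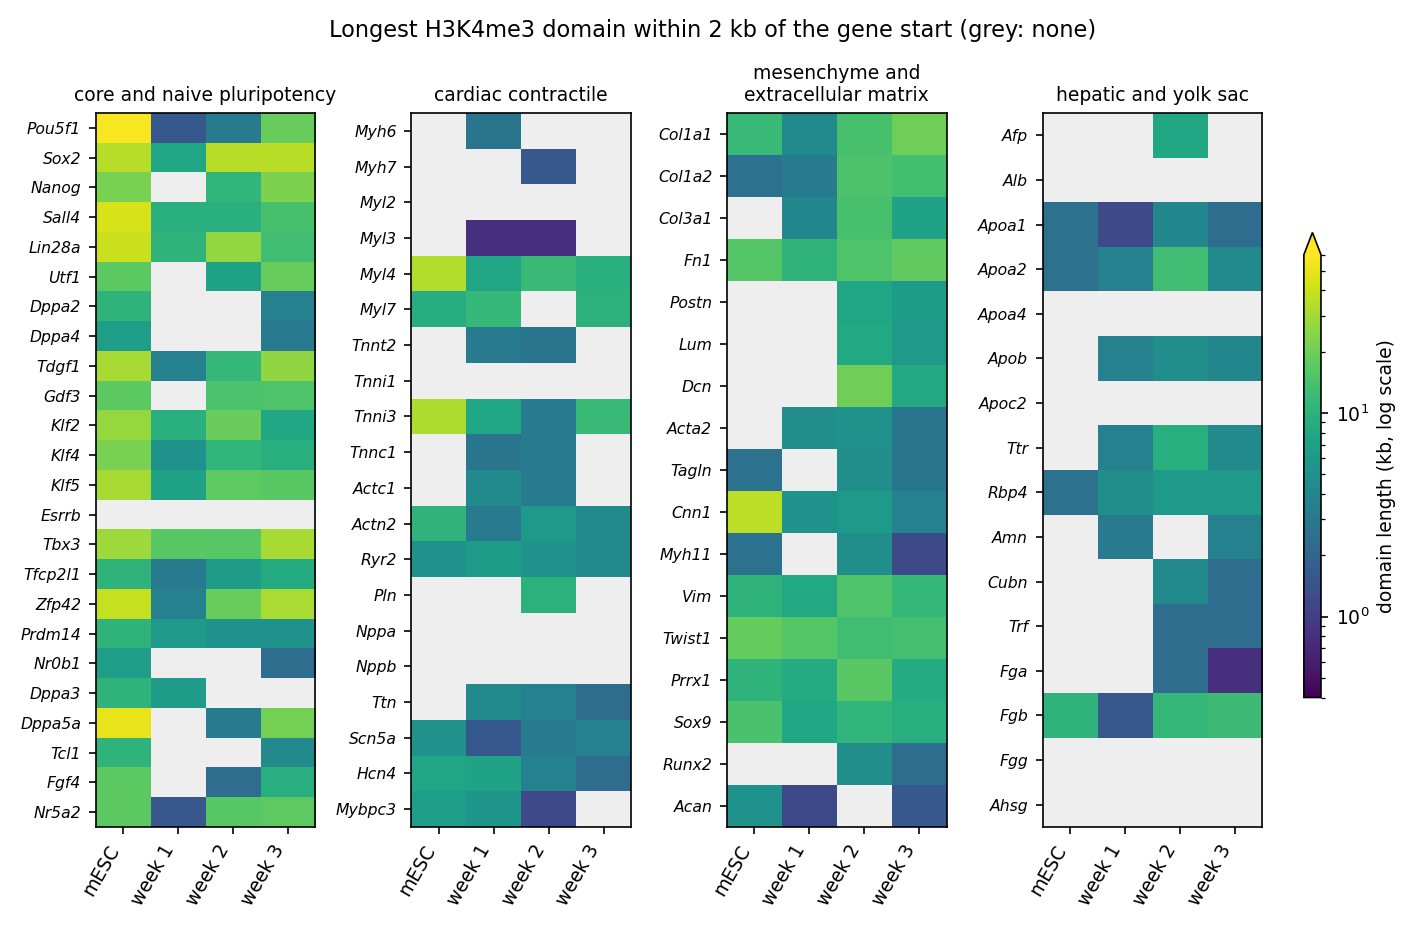
Length of the longest H3K4me3 domain within 2 kb of the gene start (color, kb, log scale) for each gene (rows) at each stage (columns), in 4 gene lists. Grey cells have no domain, and mESC domains are drawn in steps of 1300 bp against 400 bp at the EB weeks. Nanog, Utf1, Gdf3, Dppa2 and Dppa4 are grey at week 1 and colored at week 3, Actc1 and Tnnt2 are colored at weeks 1 and 2 only, and Postn, Lum and Dcn at weeks 2 and 3 only.

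Of the pluripotency genes marked at every EB week, most had a narrower domain at week 1 than at week 3. Pou5f1, which encodes Oct4, had a domain of 57200 bp in mESC and of 1600, 3200 and 18800 bp at weeks 1, 2 and 3. The week 1 domain lay 1019 bp from its start. Sox2, a partner of Oct4, had 35100, 7600, 35200 and 35600 bp. Zfp42 and Tdgf1, named after their values were seen, had 3600 bp each at week 1 and 31600 and 26000 bp at week 3. Over the 13416 promoters marked at all 3 EB weeks, where the bin was the same, the domain was wider at week 3 than at week 1 at 69.0% and narrower at 25.4%, with a median log2 ratio of 0.30. The 5 core genes among them were all wider at week 3 with a median of 2.23, and of the 8 naive genes 6 were wider, with a median of 1.06.

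The widest domains held several genes. In mESC a domain of 280800 bp covered Cdc6, a replication licensing factor gene, Nr1d1, a clock repressor gene, Msl1, Med24 and Gjd3. At the EB weeks Cdc6 had domains of 14000, 12800 and 13200 bp, and Nr1d1 and Msl1 shared domains of 35600, 30800 and 30000 bp. At week 3 a domain of 138000 bp spanned Bscl2, Gng3, Hnrnpul2 and Nxf1, which encodes the main mRNA export receptor. At Nxf1 the domain was 148200 bp long in mESC and 10800 and 52400 bp at weeks 1 and 2. The longest at week 3, 162000 bp at Speer4e, lay in a family of near-identical copies, where the placement of reads is uncertain.

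Primitive streak and mesendoderm genes, which mark the first mesoderm and endoderm, were marked at 11 of 12 promoters in mESC and 11, 8 and 9 at weeks 1, 2 and 3. T, the brachyury factor, had domains of 9100 bp in mESC and 2800 bp at week 1, none at week 2 and 800 bp at week 3. Mixl1, a homeobox factor of the streak, had 9100 and 2400 bp, none at week 2 and 5600 bp at week 3. Both belong to the 155 promoters, 0.693% of all, that were marked at every stage but week 2, even though the week 2 list had the most domains. Gsc, the organizer factor goosecoid, was lost after week 2, with 9100, 7200 and 4800 bp, and Mesp1, a factor of early cardiac mesoderm, after week 1, with 9100 and 5200 bp. Several of these domains ranked low in mean read count in their lists. T was at the 4.47th percentile at week 1 and the 56.4th at week 3, and Mixl1 at the 18.9th and the 0.435th. Gsc was at the 2.80th and 1.32nd at weeks 1 and 2, and Mesp1 at the 3.70th in mESC and the 1.12th at week 1. Calls at such ranks lie near the floor of their lists. Eomes, Wnt3, Fgf8 and Evx1 were always marked. Of 6 primed pluripotency genes 5 were always marked, among them Fgf5 and Otx2, and Pou3f1 was absent at week 2, with 27300 bp in mESC, 1200 bp at week 1 and 2000 bp at week 3.

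Among genes of the contractile apparatus of heart muscle, some were marked in passing, 6 were always marked and 4 never. Of 20 such genes, 8 were marked in mESC and 14, 14 and 8 at weeks 1, 2 and 3, and 7 belonged to the passing class, which held 2.34% of all promoters. Actc1 had domains of 4400 bp at week 1 and 3200 bp at week 2, and its nearest domain was 34384 bp away in mESC and 118717 bp away at week 3. Tnnt2, cardiac troponin T, had 3200 and 2800 bp at the same weeks, each 1852 bp from the start, and Myl3, a ventricular myosin light chain, 800 bp at both. Tnnc1, cardiac troponin C, had 2800 and 3200 bp, while another of its transcript starts was marked in mESC and at week 3. These 4 promoters were thus marked at weeks 1 and 2, a pattern found at 0.340% of promoters.

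Myh6, the alpha myosin heavy chain, was marked at week 1 only, with 2800 bp, and Myh7, the beta chain, at week 2 only, with 1600 bp. Pln, the calcium pump inhibitor phospholamban, was marked at week 2 only, with 10000 bp. Myl7, an atrial light chain, was absent at week 2 and had domains of 9100, 11200 and 10000 bp in mESC, at week 1 and at week 3. The 7 passing promoters had domains between the 2.25th and the 50.2nd percentile of mean read count in their lists. With the gene start itself required inside a domain, 4 of the 20 were passing.

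The transcription factors of the heart were marked at 8 of 12 promoters in mESC and at 11 at each EB week. Those shares were 66.7% and 91.7%, against 63.2% of all promoters in mESC and 62.1% to 66.2% at the EB weeks. Gata5 and Tbx5 were gained from week 1, Gata5 with domains of 7200, 4800 and 4800 bp and Tbx5 with 15200, 14800 and 10000 bp. Gata4 had 8800, 45600 and 11200 bp, but its mESC domain lay 2029 bp from the gene start and another start was marked in mESC. Nkx2-5 was marked throughout, with 16900, 18400, 18000 and 19600 bp, as were Tbx20 and Hand1. All 12 had H3K27me3 within 5 kb in mESC, against 7 of the 20 contractile genes and 34.9% of all promoters. At week 3, 11 of the 12 regulators and 8 of the 20 contractile genes were marked.

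**Figure D5:**
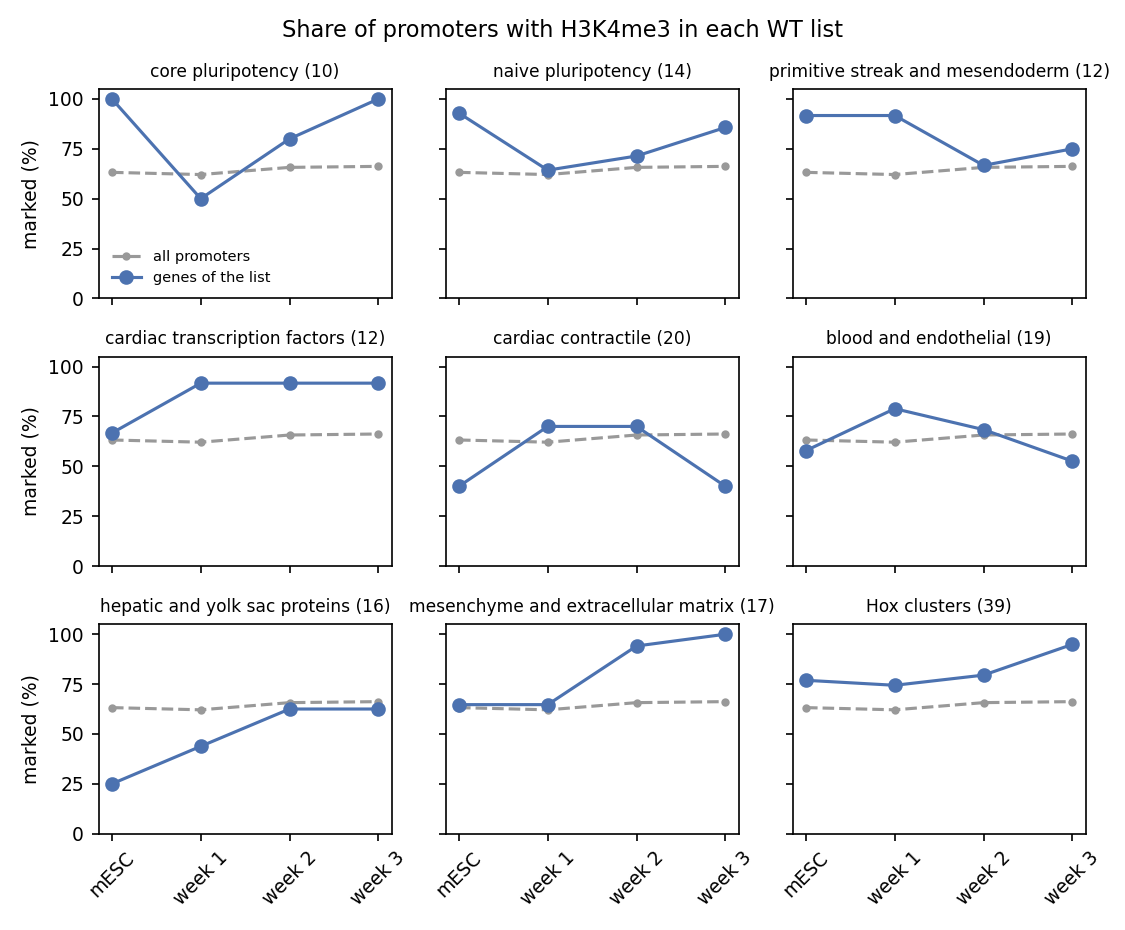
Share of promoters with H3K4me3 (y axis, percent) at each stage (x axis) in 9 gene lists (solid line, number of genes in the title) and over all promoters (dashed line). Core pluripotency is lowest at week 1 (5 of 10 genes), cardiac contractile genes are highest at weeks 1 and 2 (14 of 20), and mesenchyme and extracellular matrix genes reach 100% at week 3.

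Among genes of mesenchyme and extracellular matrix, 8 were always marked, and the others lacked a domain in mESC or at 1 of the EB weeks. Of 17 genes, 11 were marked in mESC and 11, 16 and 17 at weeks 1, 2 and 3, and 6 were gained, against 5.60% of all promoters. Dcn, the matrix proteoglycan decorin, had domains of 20400 bp at week 2 and 8400 bp at week 3, Lum, the collagen-binding proteoglycan lumican, 8400 and 6000 bp, and Postn, the matrix protein periostin, 7600 and 6400 bp. None of these had a domain nearer than 165045 bp from its start in mESC or at week 1. Runx2, the bone factor, had 4800 and 2400 bp at weeks 2 and 3 with another start marked in mESC and at week 1. Col3a1, a fibrillar collagen, had 4000, 14000 and 7200 bp and Acta2, smooth muscle actin, 4800, 5200 and 2800 bp, both from week 1.

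A pair of smooth muscle genes were marked in mESC and not at week 1. Tagln had domains of 2600 bp in mESC, 4800 bp at week 2 and 2800 bp at week 3, and Myh11 had 2600, 4800 and 1200 bp. The Tagln domains of weeks 2 and 3 were at the 0.790th and 5.81st percentile of mean read count. The always marked Col1a1 and Col1a2, the chains of type I collagen, had 4400 and 3200 bp at week 1, 14000 and 14800 bp at week 2, and 20400 and 13200 bp at week 3. Acan, the cartilage proteoglycan aggrecan, was absent at week 2. Of the gained matrix promoters Dcn ranked at the 82.1st and 84.8th percentile of mean read count and Lum at the 92.1st and 62.8th, above the range of the passing contractile genes. Others fell within that range, such as Col3a1 at the 30.3rd percentile at week 1, and Runx2 at week 3.

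Proteins of liver and yolk sac were marked at 4 of 16 promoters in mESC, 7 at week 1 and 10 at weeks 2 and 3. Apob, the backbone of lipoproteins, was gained from week 1 with domains of 3600, 4800 and 4000 bp. Cubn, an endocytic receptor of visceral endoderm, had 4400 bp at week 2 and 2400 bp at week 3, Trf, the iron carrier transferrin, 2400 bp at both, and Fga, a fibrinogen chain, 2400 and 800 bp. Afp, the fetal serum protein, was marked at week 2 only, with 8000 bp, and Alb, the adult serum albumin, at no stage. Of 11 endoderm transcription factors 9 were always marked, among them Sox17 and Foxa2. Hnf4a, the hepatocyte regulator, had 3200 bp at week 2 and 7600 bp at week 3, with another start marked at week 1. Pdx1, the pancreatic factor, had 2800, 2400 and 5200 bp from week 1.

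Blood and endothelial genes were most often marked at week 1, at 11 of 19 promoters in mESC and 15, 13 and 10 at weeks 1, 2 and 3. Those shares were 57.9%, 78.9%, 68.4% and 52.6%, against 63.2%, 62.1%, 65.7% and 66.2% of all promoters. Cdh5, the endothelial cadherin, had domains of 20800, 20800 and 15600 bp at the 3 weeks and none within 39476 bp in mESC. Tie1, an endothelial receptor kinase, had 3200 and 4000 bp at weeks 1 and 2 only, and Pecam1, an adhesion protein, 4800 bp at week 2 only. At Pecam1 another start was marked at weeks 1 and 3. Hbb-bh1, an embryonic beta globin, was marked at week 1 only, with 5200 bp. The embryonic alpha globin Hba-x and its neighbor Hba-a1 shared a domain of 42900 bp in mESC and one of 13200 bp at week 1, and had none within the window later, when the domain nearest to Hba-a1 lay 2090 and 2890 bp away. Spi1, a myeloid factor, was marked in mESC only, with 13000 bp, but another of its starts was marked at weeks 2 and 3 and the week 3 domain lay 2147 bp from the gene start. At Hba-a1 another start was marked at week 2. Sox18, an endothelial factor, was marked up to week 2, with 42900, 2400 and 2000 bp. Of the 10 promoters of this list marked at all EB weeks, 8 were narrower at week 3 than at week 1, with a median log2 ratio of -0.51 against 0.30 over all promoters. Tal1, a regulator of blood formation, had 18000 bp at week 1 and 12800 bp at week 3, and Gata2, a factor of blood progenitors, had 14800 and 3600 bp.

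Neural genes showed no common course. Of 14 neural transcription factors found in the annotation, out of 15 listed, 11 were marked in mESC and 11, 9 and 11 at weeks 1, 2 and 3. Those shares were 78.6%, 78.6%, 64.3% and 78.6%, against 63.2%, 62.1%, 65.7% and 66.2% of all promoters. Olig1, an oligodendrocyte factor, was lost after week 1, with 5200 and 3200 bp, the latter at the 0.549th percentile of mean read count. Its neighbor Olig2 was absent at week 2 only, as was Six3, an eye field factor with another start marked at week 2. At the other stages Six3 had 15600, 9600 and 14000 bp, at the 0.380th, 2.55th and 1.35th percentile of mean read count. Zic1 was absent at week 1 and had 46800 bp in mESC, 1200 bp at week 2 and 20000 bp at week 3. The mESC domain of Zic1 was at the 2.07th percentile, and calls at such ranks lie near the floor of their lists. Neurog1 and Neurod4, proneural factors, were never marked, and Pax6 and Neurog2 always were.

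Of 20 neuronal and glial structural genes, 16, 15, 13 and 18 were marked at the 4 stages in order. Nefm, a neurofilament subunit, was gained from week 2 with 5600 and 5200 bp, and Dcx, the microtubule protein doublecortin, at week 3 with 1200 bp. Slc17a6, a vesicular glutamate transporter, had 9100 bp in mESC and none later. Gad1, an enzyme of GABA synthesis, had 20800 bp in mESC only, with another start marked at each EB week. Syn1, a synaptic vesicle protein, had 10400 bp in mESC and 2800 bp at week 3. Tubb3, a neuronal tubulin that was always marked, had 62400, 12400, 5600 and 51600 bp.

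Each Hox cluster took its own course. Of 39 Hox genes, all with H3K27me3 within 5 kb in mESC, 30 were marked in mESC and 29, 31 and 37 at weeks 1, 2 and 3. In the Hoxd cluster 3 of 9 genes were marked in mESC, 7 at weeks 1 and 2, and all 9 at week 3. At Hoxd12, Hoxd9, Hoxd3 and Hoxd4, however, the week 3 domain overlapped a mESC domain. The mESC domain lay 2364 bp from the start of Hoxd9 and 2766 bp from that of Hoxd4, outside the window. Hoxd12 was called at each EB week by the domain at Hoxd13, 1786 bp away. Hoxd10, Hoxd9, Hoxd8 and Hoxd3 lay at 1 domain of 26400 bp at week 1, and Hoxd11 had 3600 bp at week 2 and 5200 bp at week 3. In the Hoxc cluster the numbers were 9 of 9 in mESC, 3 at week 1 and 7 at weeks 2 and 3, under a mESC domain of 88400 bp that held Hoxc4 to Hoxc11. The Hoxb genes numbered 10 of 10 in mESC, at week 1 and at week 3, and 7 at week 2. In the Hoxa cluster a week 3 domain of 102400 bp covered genes such as Hoxa6, which had 25200 bp at week 1 and 17200 bp at week 2.

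Other lists served as controls or held few marked promoters. All 14 housekeeping genes were always marked. Of 1087 olfactory receptor genes, which are mostly silent outside sensory neurons, 1046 were never marked, 27 were marked in mESC and 11, 9 and 8 at weeks 1, 2 and 3. Of 10 germline genes 3 were marked in mESC, 1 at weeks 1 and 2 and 2 at week 3. Ddx4 had a mESC domain of 15600 bp over its start, its nearest EB domains were 6283, 6683 and 4683 bp away, and a week 3 domain lay under the mESC domain. Dazl, an RNA-binding protein of germ cells, was always marked, with 1300, 1200, 800 and 1600 bp. Of 4 genes of the 2-cell stage that were matched, out of 6, Tdpoz4 was marked in mESC and none at the EB weeks. The Tdpoz4 domain was at the 0.406th percentile of mean read count in mESC.

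Trophoblast genes numbered 2 marked of 7 in mESC and 3 at each EB week. Ascl2, a placental regulator, was gained from week 1 at 4400, 3200 and 2800 bp. The Ascl2 domains were at the 3.18th, 2.56th and 5.07th percentile of mean read count. Skeletal muscle genes numbered 6 of 10 in mESC, 3 at weeks 1 and 2 and 5 at week 3. Of the muscle regulatory factors, Myod1 and Myog were never marked, and Myf5 was marked in mESC only, with 6500 bp at 1811 bp from its start. The mESC domain at Myf5 was at the 3.05th percentile of mean read count, and a week 3 domain lay under it. At week 2 the domain nearest to Myf5 was 2411 bp away, outside the window. The subunits of the H3K4 methyltransferase complexes were marked at 12 of 12 promoters in mESC and 10, 11 and 11 at the EB weeks, and with any transcript start at all 12 at every stage. Of 9 genes of DNA methylation and demethylation, 6 were marked in mESC, 7 at week 1 and 9 at weeks 2 and 3. Tet3, a 5-methylcytosine dioxygenase, was gained from week 1 with 22000, 34400 and 21600 bp. Tet1 of the same family had 70200 bp in mESC, 16400 bp at week 2 and 41600 bp at week 3. At week 1 it had no domain at its gene start, but another start was marked. Dnmt3a, a de novo DNA methyltransferase, had 3600, 7200 and 3600 bp at the EB weeks, and another of its starts was marked in mESC.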

How the data were processed

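H3K4me3 and H3K27me3 were measured by ChIP-seq in WT cells at 4 stages, and H3K9me3, Uhrf1, Oct4, Sox2 and Nanog in WT mESC. Per the study's methods and the labels, the authors mapped reads to mm9 with Bowtie2 2.1.0, called histone domains with RSEG against input and factor summits with MACS, and made 1 list per library. The deposited domain lists hold a signal, the mean number of reads in a bin, and a domain score, and both were used within 1 list at a time. For summits the deposited value is a read count, of which the position alone was used. Read totals were not used here, and Uhrf1 KO lists and inputs were not analysed.

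Gene starts came from the GENCODE annotation of NCBIM37, and in 84 combinations of list and chromosome 0 domains ran beyond the assembly. Promoters were classed by overlap of at least 1 bp with 2 kb either side of the start (5 kb for H3K27me3, the start itself for H3K9me3 and Uhrf1), with Python 3.11, numpy 2.4.6 and pandas 2.3.3, and plotted with matplotlib 3.10.9. The length at a promoter is that of the longest overlapping domain. Shares have Wilson and differences Newcombe 95% intervals. In a simulation with known answers, 0 of 80000 presence calls were wrong.

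Genes named were the 10 or 5 with the highest percentile of mean count in a pattern (not Gm, Rik or chromosome 18 genes), the 5 always marked ones with the longest domains in mESC and at week 3, and up to 8 members of each gene list in a mixed class with up to 4 others. Members and gene lists were chosen with earlier results of these data known. Some promoter sequences and 1 gene of the lists are not reported here.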

Additional observations from a re-analysis of the deposited data

How the results depend on the processing

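No paired analysis was possible because each stage held 1 library and no result comes from a test. Class counts were repeated with other windows (1 or 5 kb), at least 500 bp of overlap or any transcript start. In further settings starts within 1 kb were counted once, or EB domains were widened to the 1300 bp grid (chosen after seeing the data). The week 1 or week 2 list was also left out, where only always marked, lost and gained promoters were recounted. The interrupted class was not recounted. The recounted classes stayed within 1.5 times those reported under all these settings. Under these the share of mESC-marked promoters still marked at week 3 moved past its interval of counting error, to 95.3%, 96.3%, 95.3%, 96.2%, 95.3% and 96.1% in turn, and starts counted once moved the reverse share to 90.6%. With the gene start itself inside a domain, 876 promoters were lost and 93.0% of mESC-marked ones were marked at week 3.

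With domains at or above the median score, 8393 promoters were always marked, 3039 gained and 888 passing, and the shares were 91.8% and 76.2% in reverse. With lists of equal number, 1244 were lost and 550 gained, with shares of 90.8% and 95.1%. The difference in H3K27me3 between gained and never marked promoters was -4.21 points under the score threshold, the reverse of the value reported. With whole domains (chosen after seeing the data), 189 promoters were lost and the difference for lost promoters was 36.1 points. The 9 pluripotency promoters absent at week 1 numbered 8 to 11 under the alternatives run. The cause of these shifts was not tested. Read depth, bin length and the number of domains differed with the stage, so they cannot be told apart from it.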

Other observations

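Other gene families, looked at after the values were seen, are given as counts. Of 43 collagen chain genes, 22 were marked in mESC and 27, 32 and 35 at weeks 1, 2 and 3, and 13 were gained. Over all promoters 63.2%, 62.1%, 65.7% and 66.2% were marked at these stages, and 5.60% were gained. Col19a1, Col4a3, Col4a4, Col24a1, Col13a1 and Col8a1 were gained from week 1 beside Col3a1, and Col6a1, Col6a3, Col15a1 and Col22a1 from week 2. The neighboring genes Col4a3 and Col4a4, which encode basement membrane chains, lay at the same domains and are not separate observations.

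Fatty acid binding protein genes were marked at 2 of 9 promoters in mESC and at week 1, 7 at week 2 and 3 at week 3. Fabp4, Fabp12, Fabp2 and Fabp1 were marked at week 2 only, with domains of 2000, 5600, 800 and 400 bp. This pattern was found at 1.61% of all promoters, and the week 2 list held the most domains of the 4, 39898. Fabp7, a protein of radial glia, had 4400 bp at week 2 and 6400 bp at week 3.

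Of 22 fibroblast growth factor genes, 15 were marked in mESC and 13, 17 and 18 at weeks 1, 2 and 3. Fgf17 had a domain of 27300 bp in mESC, none at weeks 1 and 2 and 10800 bp at week 3, the course seen at Dppa2 and Dppa4. Fgf12, Fgf13, Fgf14 and Fgf16 were gained from week 1, a pattern found at 2.79% of all promoters. Fgf7, a mesenchymal factor, was gained from week 2 with 8400 and 2800 bp, and Fgf3 was lost after week 1, with 3900 bp in mESC and 4400 bp at week 1.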
